A study of Mus musculus with 2 samples.

Results

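The 9 genes Col6a1, Col6a2, Col6a3, Col8a1, Col12a1, Col14a1, Col22a1, Col24a1 and Col25a1, chosen by symbol, are described here across the stromal cells of mouse long-bone marrow. They are 9 of the 44 collagen genes and of the 34144 genes in the feature lists of both libraries. They are grouped as non-fibrillar collagens, although collagen XXIV, the product of Col24a1, is by its structure counted among the fibril-forming collagens. RNA of single cells was measured in 2 libraries, 1 from old and 1 from adult wild-type C57BL6 mice. In both, flushed long bones were digested with collagenase IV, dispase and DNase, blood-forming cells were depleted by autoMACS, and live cells sorted by scatter and DAPI entered the 10x 3′ v3.1 assay. The labels give age as a word only, and the number of mice, their ages and any pooling were not stated in the material used here. With 1 library per age there is no replicate, so no difference below was tested, age and library cannot be told apart, and each interval (95%) covers counting error only.

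Collagen VI is assembled from 3 chains, encoded by Col6a1, Col6a2 and Col6a3 or its relatives, into beaded microfilaments around cells. Collagen VIII forms short-chain networks, and collagens XII, XIV and XXII are FACITs, molecules that attach to fibrils or sit at tissue junctions. Collagen XXIV is known from developing bone, and collagen XXV is a transmembrane collagen, also called CLAC-P, with roles in motor nerve and muscle development. In marrow, CXCL12-abundant reticular (CAR) cells support blood stem cells, and osteolineage cells make bone.

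The old library held 22298 barcodes and 229917243 unique molecular identifiers (UMIs), and the adult library held 25635 barcodes and 208637421 UMIs. Filtering left 18975 old cells (median 7736 UMIs) and 22403 adult cells (median 7139 UMIs), and 108 of the barcodes kept were shared by both libraries. Clustering without any collagen gene gave 34 clusters, named from markers that include no collagen. CAR-like cells numbered 9319 old and 12500 adult, osteolineage-like cells 869 old and 3379 adult, pericyte or smooth muscle-like cells 216 old and 491 adult, and fibroblast-like cells 33 old and 91 adult. All 10 CAR markers reached 10 CPM (UMIs of a gene per 1000000 UMIs of the class) in the CAR-like cells of both libraries, as did 12 of 12 osteolineage markers in old and 11 of 12 in adult osteolineage-like cells. The libraries barely shared their CAR-like clusters: clusters 2, 7, 8, 13 and 16 were almost wholly old and clusters 0, 4 and 9 almost wholly adult, while clusters 12 and 20 held at least 50 cells of each. A pair of large clusters with CAR markers stayed unnamed because a bone marker was among their leading genes: cluster 1 (Grm7, Tenm2, Efemp1) with 4954 old and 27 adult cells, and cluster 3 (Hs3st5, Wif1, Vcan) with 37 old and 2586 adult cells. Ratios in the whole CAR-like class therefore also compare different clusters, and values within shared clusters stand beside them.

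Promoter sequence is shown for 4 genes: the collagen VI pair whose levels moved together over clusters, and the genes that marked different osteolineage clusters. The RefSeq table held 6 of the 9 genes (all but Col12a1, Col14a1 and Col22a1), and each window runs from 250 bases before to 50 bases after the start, 5′ to 3′ on the gene's strand, in GRCm38.p6. Capitals mark matches on either strand to 5 motifs searched: AP-1 (TGACTCA, in 5.2% of all 32851 promoters of this length), CRE (TGACGTCA, 1.79%), GC box (GGGCGG, 35.7%), TATA box (TATAAA, 13.6%) and octamer (ATGCTAAT, 0.919%). Col6a1 (chr10:76725995-76726294, minus strand) and Col6a2 (chr10:76623355-76623654, minus strand, the first of its 2 starts listed) lie on chromosome 10 with no protein-coding gene between them. Col24a1 (chr3:145292222-145292521) and Col25a1 (chr3:130180595-130180894) are on the plus strand of chromosome 3.
Col6a1: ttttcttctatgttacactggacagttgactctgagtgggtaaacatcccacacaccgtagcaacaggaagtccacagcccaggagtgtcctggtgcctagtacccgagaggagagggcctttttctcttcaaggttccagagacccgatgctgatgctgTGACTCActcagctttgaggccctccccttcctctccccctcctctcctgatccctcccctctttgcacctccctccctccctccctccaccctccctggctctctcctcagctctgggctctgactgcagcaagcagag
Col6a2: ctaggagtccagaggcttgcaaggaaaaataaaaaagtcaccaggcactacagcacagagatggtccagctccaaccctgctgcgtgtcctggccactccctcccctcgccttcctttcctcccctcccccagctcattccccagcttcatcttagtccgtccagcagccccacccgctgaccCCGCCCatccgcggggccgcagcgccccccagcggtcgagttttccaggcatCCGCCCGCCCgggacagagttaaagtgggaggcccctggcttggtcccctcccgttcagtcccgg
Col24a1: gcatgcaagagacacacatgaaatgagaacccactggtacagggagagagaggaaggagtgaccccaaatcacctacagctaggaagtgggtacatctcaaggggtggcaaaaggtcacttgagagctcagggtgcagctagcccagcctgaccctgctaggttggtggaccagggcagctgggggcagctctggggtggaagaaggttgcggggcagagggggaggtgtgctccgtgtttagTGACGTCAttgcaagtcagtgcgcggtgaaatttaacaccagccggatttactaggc
Col25a1: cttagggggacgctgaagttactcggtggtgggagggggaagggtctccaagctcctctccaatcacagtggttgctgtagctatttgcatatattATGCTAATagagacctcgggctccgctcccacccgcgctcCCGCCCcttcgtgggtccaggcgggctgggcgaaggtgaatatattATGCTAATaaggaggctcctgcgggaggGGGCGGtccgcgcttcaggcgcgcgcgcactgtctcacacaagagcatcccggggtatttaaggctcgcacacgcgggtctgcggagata
Col6a1 held 1 AP-1 match, Col6a2 held 3 GC boxes of which 1 pair overlapped, Col24a1 held 1 CRE, and Col25a1 held 2 octamers and 2 GC boxes. The windows of Col6a3 and Col8a1 held 0 and 4 matches. A match describes the letters of the window only.

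The 9 genes fell into different patterns over the stroma. The collagen VI chains, Col8a1 and Col12a1 had UMIs in most stromal classes, though Col8a1 and Col12a1 not always above the level in blood cells. Col22a1 was mostly in osteolineage-like cells, Col25a1 was highest in 1 osteolineage-like cluster, and Col14a1 had its highest level in fibroblast-like cells. Of old library UMIs for Col22a1, 90.6% lay in osteolineage-like cells, which were 4.58% of old cells, against 95.2% in osteolineage-like cells that were 15.1% of adult cells. Col24a1 divided differently, with 32.5% of old and 92.8% of adult UMIs in osteolineage-like cells. CAR-like cells, 49.1% of old and 55.8% of adult cells, held 53.0% of old and 2.23% of adult Col24a1 UMIs. The old part was thus near their share of cells. Fibroblast-like cells, 0.174% of old and 0.406% of adult cells, held 15.4% of old and 57.7% of adult Col14a1 UMIs. The blood-cell classes (erythroid, megakaryocyte, neutrophil and, in the old library, plasma cell-like) served as an estimate of free RNA in droplets, called background below. With every cell thinned to 2000 UMIs, 4.83% to 16% of cells of the old and 17.8% to 26% of cells of the adult blood-cell classes had a Col6a1 UMI, and 10.3% to 25.3% of old and 14% to 18.3% of adult ones had a Col8a1 UMI.

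**Figure D1:**
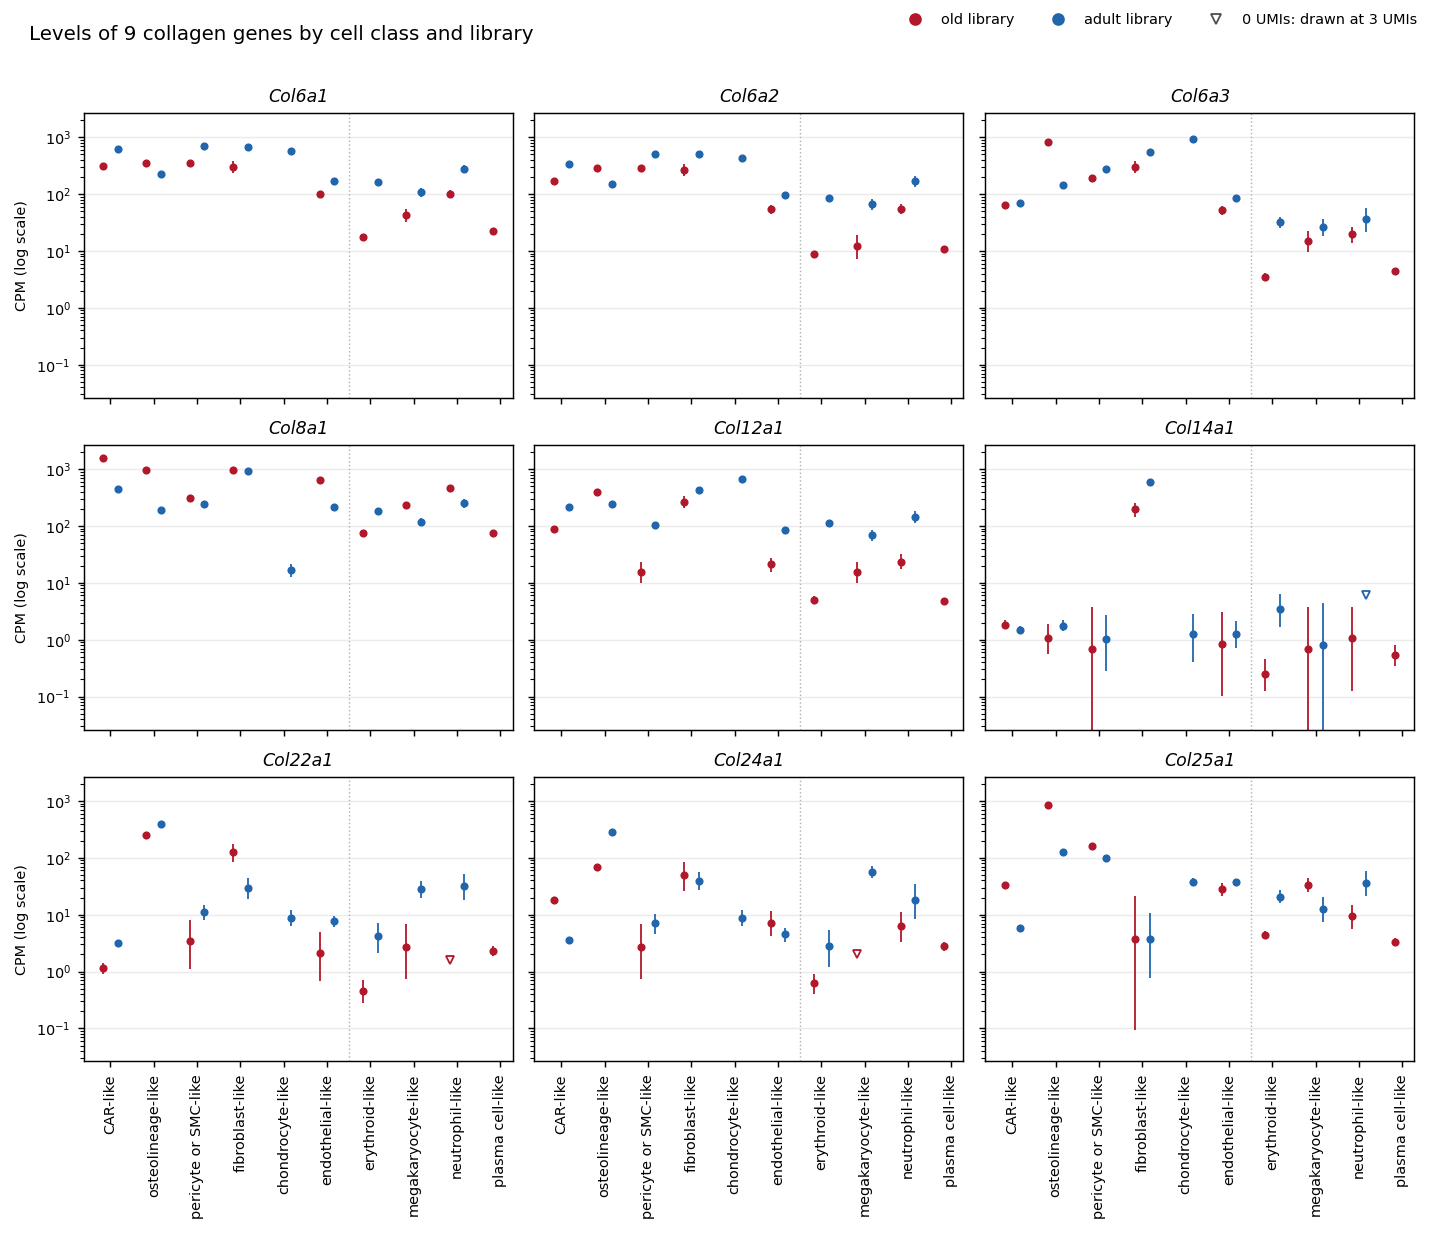
Level of each gene in CPM (log scale) in the cells of each class, old library in red and adult library in blue, with exact Poisson intervals; open triangles stand at 3 UMIs where none was counted, and the dotted line parts stromal and endothelial from blood-cell classes. Col22a1 stands at 252 CPM in old and 387 CPM in adult osteolineage-like cells, far above its level in CAR-like cells of either library.

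Among CAR-like cells, Col8a1, Col24a1 and Col25a1 were higher by 2-fold or more in old than in adult cells, and Col6a1 and Col12a1 were lower by 2-fold or more. Of the 9 genes, 7 reached the minimum of 10 CPM and 50 UMIs in the library where they were higher, and of these 3 were higher and 2 lower, where 3.88% and 2.33% of all 9538 genes past the minimum were higher and lower (6.21% in all). The median log2 ratio of old over adult CPM was -0.11 for the 7 genes and 0.04 for all genes. Col14a1, at 1.83 CPM in old and 1.47 CPM in adult cells, and Col22a1, at 1.15 CPM in old and 3.12 CPM in adult cells, were below the minimum. The 10 fibroblast markers had a summed level of 1454 CPM in old and 513 CPM in adult CAR-like cells. Of them, 4 were at 10 CPM or more in old and 3 in adult cells, and 0 were at 0. Dcn, which is on that list, made up 1217 CPM of the sum in old and 321 CPM in adult cells. Most of the difference in the sum thus lay in Dcn and not in the markers as a set. Dpt was at 0.344 CPM in old and 0.104 CPM in adult cells. The part of these fibroblast markers in the results was not tested. Col14a1, Col22a1 and, in adult cells, Col24a1 and Col25a1 had fewer or about as many UMIs per CAR-like cell as per blood cell.

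Of the collagen VI chains, Col6a1 was at 310 CPM in old and 623 CPM in adult CAR-like cells, a log2 ratio of -1.01 (-1.03 to -0.98), which lies on the 2-fold boundary. Col6a2 was at 173 CPM in old and 333 CPM in adult cells (-0.95), and Col6a3, the chain with the longest amino-terminal region, at 64.0 CPM in old and 69.1 CPM in adult cells (-0.11). The Col6a3 ratio passed 2-fold, at -1.21, with the unnamed clusters 1 and 3 counted as CAR-like, and was -1.33 when the libraries were clustered separately. Col6a1 UMIs were found in 68.1% of old and 86.4% of adult CAR-like cells, and in 40.1% of old and 64.9% of adult ones after thinning, with 1037 old and 681 adult cells too shallow to thin. In cluster 12 (Lrrtm4, Kit, Fndc1; 925 old and 57 adult cells) all 3 chains were lower in the old library, with log2 ratios of -0.78 for Col6a1, -1.09 for Col6a2 and -0.92 for Col6a3. Cluster 20 (Cxcl10, Cxcl9, Ifit3; 183 old and 204 adult cells) gave -0.68, -0.80 and -0.40 for the same chains. Among CAR-like clusters of at least 50 cells in the library, Col6a1 ranged between 110 CPM in cluster 7 and 485 CPM in cluster 13 of the old library, and between 278 CPM in cluster 4 and 666 CPM in cluster 0 of the adult library. Both low ends were at or under background, which equalled 181% of the UMIs per cell of old cluster 7 and 102% of those of adult cluster 4.

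Col8a1, the alpha-1 chain of collagen VIII, was at 1581 CPM in old and 439 CPM in adult CAR-like cells, a log2 ratio of 1.85. Its UMIs were in 78.6% of old and 51.4% of adult cells, and in 66.5% of old and 34.2% of adult cells after thinning. Every old CAR-like cluster of at least 50 cells was above every adult one: the old clusters ran between 930 CPM in cluster 2 (C3, Hdac9, Kcnab1) and 3414 CPM in cluster 8 (Cxcl13, Kcnk2, Shank2), and the adult clusters between 261 CPM in cluster 9 (Cxcl1, Lsmem1, Nr4a1) and 613 CPM in cluster 12. The unnamed adult cluster 3 departs from this order, at 1565 CPM with a UMI in 92.2% of its 2586 adult cells, while the unnamed old cluster 1 was at 1072 CPM. Among the CAR-like clusters, background equalled 127% of the Col8a1 UMIs per cell of old cluster 13, which was at 931 CPM. It equalled 73.3% in adult cluster 4 and 60.5% in old cluster 7. With both unnamed clusters counted as CAR-like the log2 ratio was 1.01, and when the libraries were clustered separately it was 0.24. Within cluster 12 it was 1.15 (1365 CPM old, 613 CPM adult) and within cluster 20 it was 1.13 (1230 CPM old, 562 CPM adult).

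Col12a1, a FACIT of tendon and bone, was at 89.8 CPM in old and 213 CPM in adult CAR-like cells, a log2 ratio of -1.24. All old CAR-like clusters of at least 50 cells lay between 63.1 and 138 CPM, below the adult range of 180 to 218 CPM. Background equalled 120% of the Col12a1 UMIs per cell of old cluster 13, the low end. It equalled 71.7% in old cluster 7 and 86.5% in adult cluster 4. Over the CAR-like class it equalled 25.3% in old and 39.4% in adult cells, and its part in the ratio cannot be read from these levels. The adult cluster 3 had the highest level of any cluster, 899 CPM, and 90.1% of its cells had a UMI. The ratio was -1.36 within cluster 12 and -1.60 within cluster 20, and -2.16 with both unnamed clusters counted as CAR-like.

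Col25a1 was at 32.8 CPM in old and 5.90 CPM in adult CAR-like cells (log2 ratio 2.48), and Col24a1 at 17.8 CPM in old and 3.61 CPM in adult cells (2.30). In old cells both were unevenly spread. The Cxcl13 cluster 8 had 87.4 CPM of Col25a1, with a UMI in 24.1% of cells, and 35.8 CPM of Col24a1, with a UMI in 16.0% of cells. Over the old CAR-like class, 839 of 9319 cells had a Col25a1 UMI (9.0%) and 6.80% a Col24a1 UMI. After thinning the shares were 4.01% and 2.60%, against 0.448% to 2.07% and 0% to 1.33% in old blood-cell classes. These thinned shares cannot place the old levels above background, because thinning takes more free RNA from deeper cells. Median depth was 41369 UMIs in old erythroid-like, 33008 in plasma cell-like and 6735 in CAR-like cells. By UMIs per cell, background equalled 57.1% of Col25a1 and 41.8% of Col24a1 in old CAR-like cells. Among adult cells 2.98% had a Col25a1 UMI and 2.33% a Col24a1 UMI. After thinning, the adult shares were 1.07% for Col25a1 and 0.601% for Col24a1, against 1.48% to 4% and 0.457% to 6% in adult blood-cell classes. By UMIs per cell, background equalled 275% of Col25a1 and 416% of Col24a1 in adult CAR-like cells, so the adult levels are read as background. The direction of Col25a1 turned under 2 settings: the log2 ratio was -0.62 with the unnamed clusters counted as CAR-like and -1.70 when the libraries were clustered separately. The unnamed adult cluster 3 held 143 CPM of Col25a1, and its part in the second value was not tested. Col24a1 kept its direction at 0.82 and 0.98 under these settings. Within cluster 12, Col25a1 was at 46.0 CPM in old and 9.97 CPM in adult cells, the adult value resting on 8 UMIs.

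**Figure D2:**
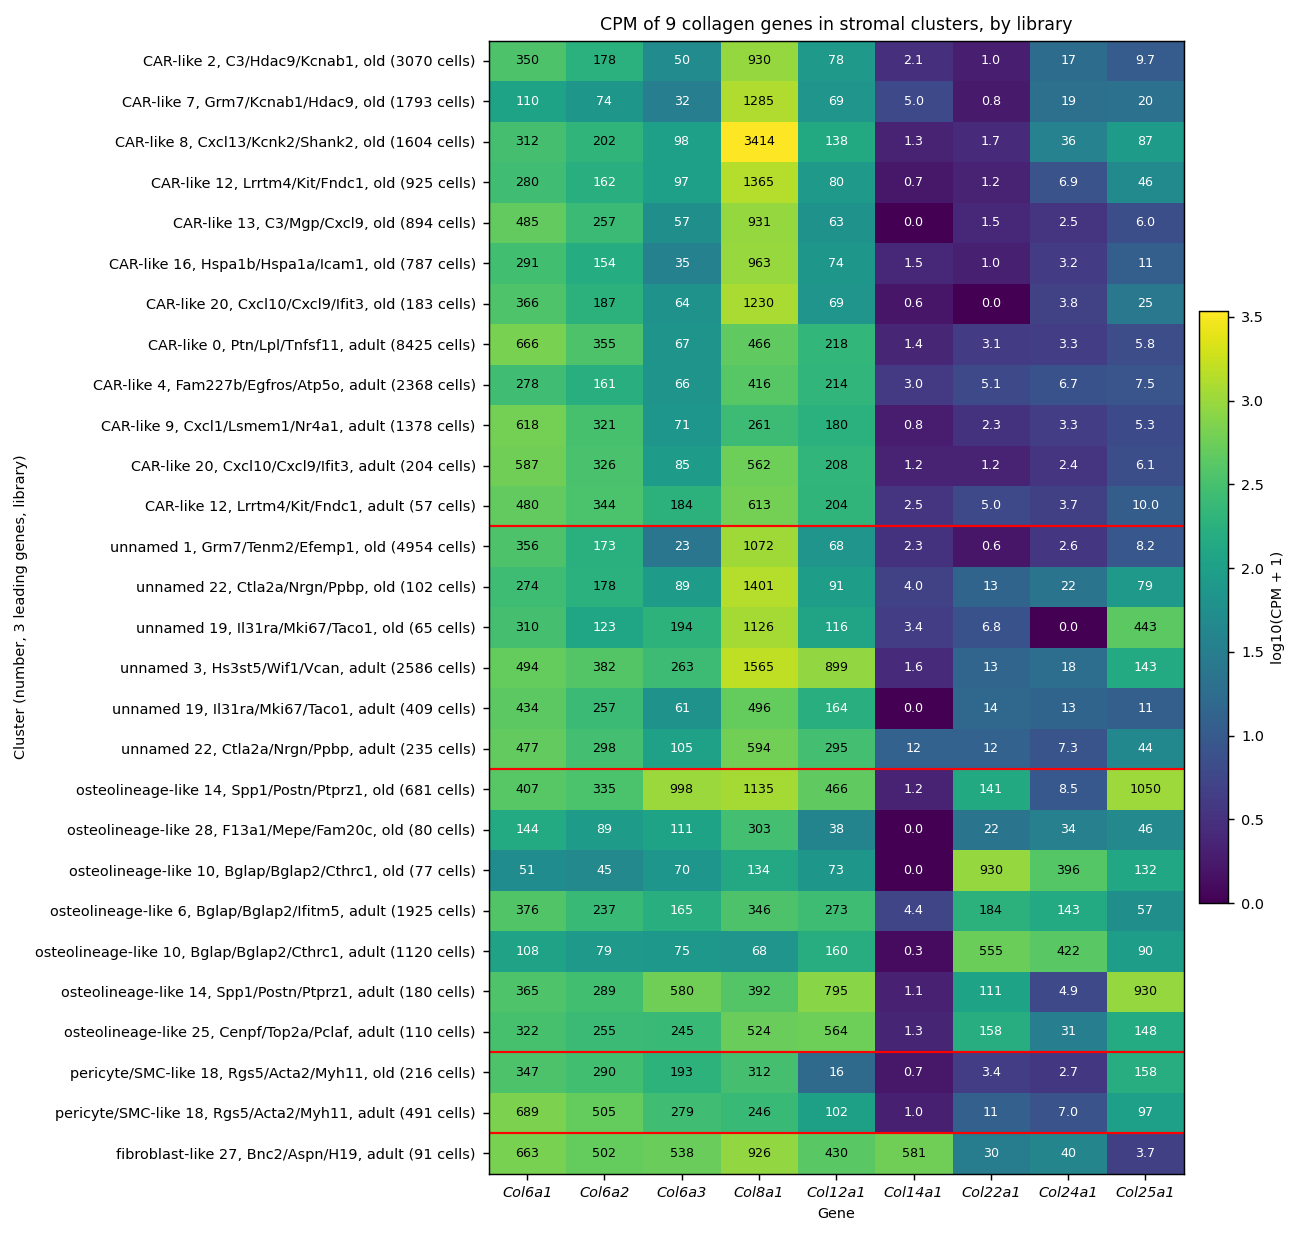
CPM of each gene (printed, and as colour on a log10 scale) in every cluster of at least 50 cells of a library, with old rows above adult rows in each class and red lines between classes. The Col8a1 maximum of 3414 CPM is in the old Cxcl13 cluster 8, the Col12a1 maximum of 899 CPM in the unnamed adult cluster 3, and the Col25a1 values of 1050 CPM and 930 CPM in the old and adult cells of cluster 14.

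In osteolineage-like cells, Col6a3, Col8a1 and Col25a1 were higher by 2-fold or more in old than in adult cells, and Col24a1 was lower by 2-fold or more. Of the 9 genes 8 passed the minimum, 3 higher, 1 lower and 4 within 2-fold, where 10.0% of all 9390 genes past the minimum were higher and 4.45% lower (14.5% in all). The median log2 ratio was 0.78 for the 8 genes and 0.24 for all genes. The clusters behind the class differed. Cluster 14 (Spp1, Postn, Ptprz1) had 681 of the 869 old and 180 of the 3379 adult cells. Cluster 10 (Bglap, Bglap2, Cthrc1) had 77 old and 1120 adult cells. Cluster 6 (Bglap, Bglap2, Ifitm5) had 0 old and 1925 adult cells, and its marker scores were 0.624 for osteolineage and 0.617 for CAR. In cluster 6, CAR, chondrocyte and erythroid markers summed to 10948, 1834 and 4630 CPM. In adult cells of cluster 10 these sums were 1901, 356 and 111 CPM. Fibroblast markers went the other way, at 3286.5 CPM in cluster 6 and 6232 CPM in adult cells of cluster 10. Markers of other cell types also differed in the class. Chondrocyte markers had a summed level of 358 CPM in old and 913 CPM in adult osteolineage-like cells. Of these 10 markers, 1 reached 10 CPM and 3 were at 0 in old cells, Acan among them, and all 10 reached 10 CPM in adult cells. Fibroblast markers summed to 1698 CPM in old and 4758 CPM in adult cells, with 4 of 10 at 10 CPM in each library. Erythroid markers summed to 565 CPM in old and 1654 CPM in adult cells, with 4 of 8 at 10 CPM in old and 3 of 8 in adult cells. Endothelial markers summed to 17.8 CPM in old and 174 CPM in adult cells, with 0 of 10 at 10 CPM in old and 7 of 10 in adult cells. The part of these markers in the results was not tested.

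Col25a1 reached 846 CPM in old and 124 CPM in adult osteolineage-like cells, a log2 ratio of 2.77, and 77.6% of old and 34.4% of adult cells had a UMI (56.3% of old and 11.8% of adult cells after thinning). Cluster 14 alone gave 1050 CPM in old and 930 CPM in adult cells, a log2 ratio of 0.18 (0.11 to 0.24). Outside cluster 14 the levels were lower, at 132 CPM in old and 90.2 CPM in adult cells of cluster 10. A ratio of the size seen in the class was found within neither shared cluster. Col6a3 behaved likewise, at 813 CPM in old and 142 CPM in adult cells of the class (2.51), 998 CPM in old and 580 CPM in adult cells of cluster 14 (0.78), and 70.5 CPM in old and 74.8 CPM in adult cells of cluster 10 (-0.09).

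Col8a1 was at 956 CPM in old and 194 CPM in adult osteolineage-like cells (2.30), and it was higher in the old library within both shared clusters, by a log2 ratio of 1.53 in cluster 14 (1135 CPM old, 392 CPM adult) and 0.98 in cluster 10 (134 CPM old, 67.8 CPM adult). In cluster 10 the levels were near background, which equalled 90.2% of the old and 62.3% of the adult UMIs per cell. Col12a1 was at 387 CPM in old and 243 CPM in adult cells of the class (0.67), but lower in the old library within cluster 14 (466 CPM old, 795 CPM adult, -0.77) and cluster 10 (72.8 CPM old, 160 CPM adult, -1.13). Col6a1 (349 CPM old, 224 CPM adult, 0.64) and Col6a2 (283 CPM old, 152 CPM adult, 0.89) kept the direction of the class in cluster 14, at 0.16 and 0.21, but not in cluster 10, where they were at -1.08 and -0.83.

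Col24a1 was at 67.8 CPM in old and 289 CPM in adult osteolineage-like cells, a log2 ratio of -2.09. Its level in cluster 10 was 396 CPM in old and 422 CPM in adult cells (-0.09, -0.21 to 0.02), and 8.53 CPM in old and 4.94 CPM in adult cells of cluster 14. Cells with a Col24a1 UMI made up 79.2% of the old and 85.1% of the adult cells of cluster 10, but 6.02% of old and 6.67% of adult cells of cluster 14. Col22a1, a FACIT known from tissue junctions, was at 252 CPM in old and 387 CPM in adult cells of the class (-0.62). It was higher in the old library within cluster 10 (930 CPM old, 555 CPM adult, 0.75) and cluster 14 (141 CPM old, 111 CPM adult, 0.35). In cluster 10, 100% of the 77 old and 94.6% of the 1120 adult cells had a Col22a1 UMI. Among osteolineage-like clusters of at least 50 cells, Col22a1 and Col24a1 were thus highest in cluster 10, led by Bglap, and Col25a1 and Col6a3 in cluster 14, led by Spp1 and Postn, in both libraries.

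**Figure D3:**
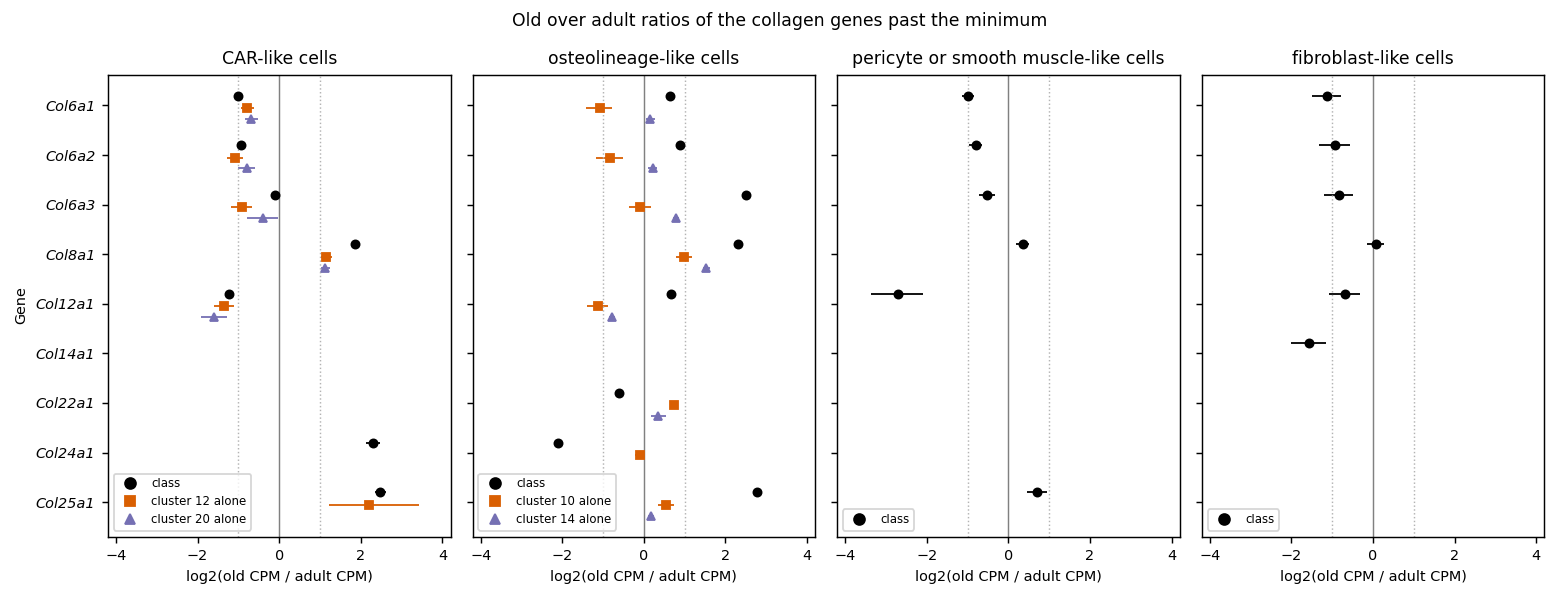
Log2 ratio of old over adult CPM for the genes past the minimum in 4 classes (black circles) and within the clusters shared by both libraries (coloured squares and triangles), with exact counting intervals and dotted lines at 2-fold. In osteolineage-like cells Col25a1 lies at 2.77 for the class but at 0.18 and 0.55 within clusters 14 and 10, whereas Col8a1 lies at 1.53 and 0.98.

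The pericyte or smooth muscle-like class was a single cluster (Rgs5, Acta2, Myh11) in both libraries. In it, 6 of the 9 genes passed the minimum and 1, Col12a1, was lower by 2-fold or more in old cells, where 4.54% of all 7361 genes were lower and 2.54% higher (7.08% in all). The median log2 ratio was -0.66 for the 6 genes and -0.09 for all genes. Col12a1 was at 15.7 CPM in old and 102 CPM in adult cells (-2.70), from 23 old and 391 adult UMIs. The UMIs per blood cell equalled 160% of the old and 80.7% of the adult level. After thinning, 2.11% of old and 12.2% of adult cells had a Col12a1 UMI, inside the blood-cell ranges of 1.05% to 4.67% in the old and 6.67% to 24% in the adult library, so Col12a1 was not told apart from background in either. Col6a1 was at 347 CPM in old and 689 CPM in adult cells (-0.99), Col6a2 at 290 CPM in old and 505 CPM in adult cells (-0.80) and Col6a3 at 193 CPM in old and 279 CPM in adult cells (-0.53). Col25a1 was at 158 CPM in old and 97.5 CPM in adult cells (0.70), with a UMI in 23.2% of old and 10.5% of adult cells after thinning. Col8a1, at 312 CPM in old and 246 CPM in adult cells, lay below background in old cells, which equalled 126% of its UMIs per cell. Erythroid markers summed to 6087 CPM in old and 1654 CPM in adult cells of this cluster, and their part in these ratios was not tested.

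Fibroblast-like cells (Bnc2, Aspn, H19) were few, 33 old and 91 adult. In them 6 of 9 genes passed the minimum and 2 were lower by 2-fold or more in old cells, where 9.42% of all 2303 genes were lower and 3.69% higher (13.1% in all), and the median log2 ratio was -0.88 for the 6 genes and -0.27 for all. Col14a1, the FACIT that binds decorin, was at 196 CPM in old and 581 CPM in adult cells (-1.57, -2.01 to -1.15), from 52 old and 466 adult UMIs. A Col14a1 UMI was in 24.2% of old and 59.3% of adult cells, and in 24.2% of old and 36.5% of adult cells after thinning. The 52 old UMIs came from 8 cells, with 20 in the highest cell and 10 in the next. Among the 466 adult UMIs these cells held 48 and 46. The interval of the ratio does not cover this spread between cells. Col6a1 was at 301 CPM in old and 663 CPM in adult cells (-1.14). Col6a2, Col6a3 and Col12a1 were within 2-fold at -0.93, -0.84 and -0.69, and Col8a1 was at 967 CPM in old and 926 CPM in adult cells (0.06). The 33 old Col22a1 UMIs all came from 1 cell, and 19 of the 24 adult ones from another, so its level here describes single cells.

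The collagen VI chains kept different proportions in different cells. For each Col6a1 UMI there were 0.556 Col6a2 UMIs in old and 0.534 in adult CAR-like cells, 0.809 in old and 0.679 in adult osteolineage-like cells, and, among pericyte or smooth muscle-like cells, 0.837 in old and 0.733 in adult cells. Col6a3 varied more. There were 0.206 Col6a3 UMIs per Col6a1 UMI in old and 0.111 in adult CAR-like cells, 2.33 in old and 0.634 in adult osteolineage-like cells, and 1.67 in the 102 chondrocyte-like cells, all adult. Within cluster 14 there were 2.46 in old and 1.59 in adult cells, the highest among osteolineage-like clusters, and the unnamed old cluster 1 had 0.0654. Blood-cell classes had 0.205 in the old and 0.192 in the adult library. Chain numbers are not compared with each other, because UMIs of different genes are not on one scale, only their proportions between cells.

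**Figure D4:**
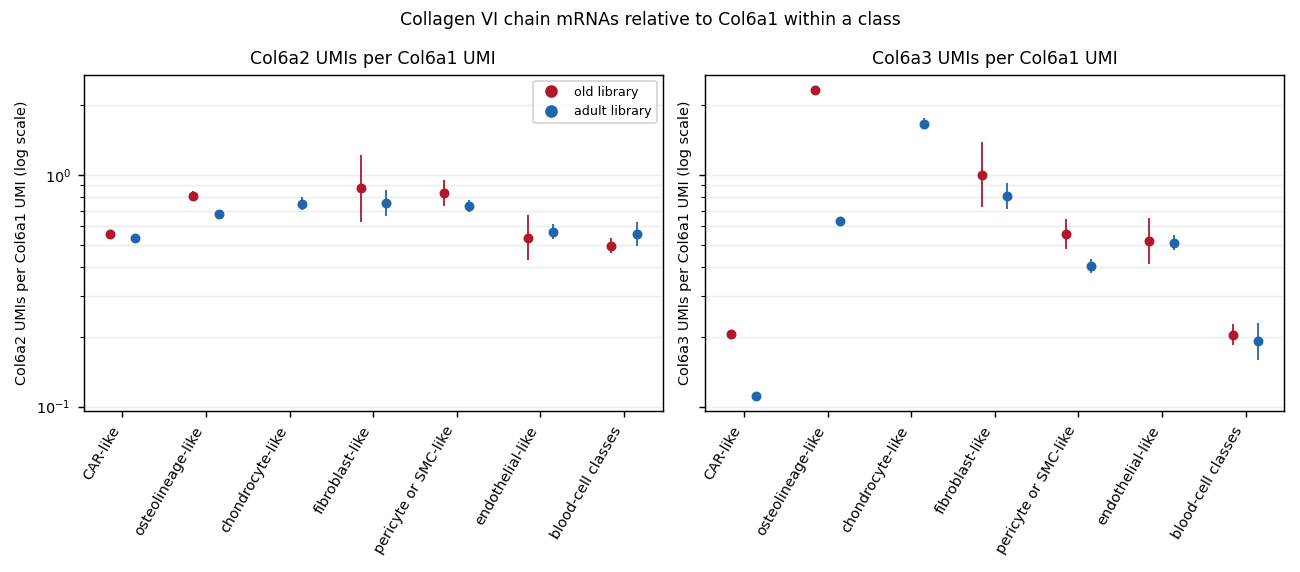
UMIs of Col6a2 (left) and Col6a3 (right) for each UMI of Col6a1 in each class (log scale, exact counting intervals), old library in red and adult library in blue. Col6a2 lies between 0.495 and 0.875 throughout, and Col6a3 between 0.111 in adult CAR-like and 2.33 in old osteolineage-like cells.

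Across 42 units, each a cluster in 1 library with at least 50 cells, the genes most alike to each collagen gene in log2(CPM + 10) were listed by Pearson correlation, as a description without a test, since units share libraries and background. Col6a1 and Col6a2 were nearest to each other (r = 0.98 over 42 units), followed for both by Igsf10 (0.93 and 0.92) and Ccn2 (0.92 for each). Col6a3 was nearest to Ccdc80 (0.90), Raph1 (0.86) and Ugdh (0.85), Col8a1 to Abca8a (0.91), Cp (0.91) and Gm20619 (0.90), and Col12a1 to Dipk2a (0.87), Ror2 (0.87) and Fibin (0.86). Col14a1 was nearest to Mfap4 (0.97), Pthlh (0.96) and Mmp3 (0.96), and Col22a1 to Ifitm5 (0.96), which encodes a membrane protein of osteoblasts, Kcnk1 (0.95) and Pcsk6 (0.93). Col24a1 was nearest to Ranbp3l (0.90), Rgs7 (0.89) and Cacna2d3 (0.89), and Col25a1 to Vldlr (0.85), Nmnat2 (0.84) and Postn (0.83). The values of Col14a1 rest mostly on 1 unit, the 91 adult fibroblast-like cells at 581 CPM. The 33 old fibroblast-like cells were too few to form a unit.

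Among related genes of the collagen pathway, the list of 10 fibrillar collagens had 5 members at least 2-fold lower and 1 higher in old CAR-like cells, and 6 lower and 1 higher in old osteolineage-like cells. Over all genes past the minimum, 2.33% were lower and 3.88% higher in CAR-like cells, and 4.45% were lower and 10.0% higher in osteolineage-like cells, which also stands beside the list counts that follow. The 3 fibrillar genes farthest apart in CAR-like cells, Col11a2, Col1a1 and Col11a1, were each under blood-cell background in both libraries. Col1a1, the main chain of bone collagen, was at 121 CPM in old and 709 CPM in adult CAR-like cells (-2.55), and at 14305 CPM in old and 67820 CPM in adult osteolineage-like cells (-2.25). Of 25 other non-fibrillar collagens, 8 passed the minimum in CAR-like cells, 2 higher and 1 lower, and 12 in osteolineage-like cells, 2 higher and 4 lower. Of these, Col10a1, the collagen of hypertrophic cartilage, was at 0.177 CPM in old and 297 CPM in adult osteolineage-like cells, and Col9a1 and Col9a3 were lower as well. The 20 genes of collagen folding in the endoplasmic reticulum had 1 member higher and 0 lower in old CAR-like cells, and 1 higher and 5 lower in old osteolineage-like cells. P4ha3, a prolyl hydroxylase subunit, was at 38.3 CPM in old and 4.17 CPM in adult osteolineage-like cells. Of 13 collagen receptors, Itga2 was higher in old CAR-like cells, but under blood-cell background in both libraries. Background equalled 121% of its UMIs per cell in old and 438% in adult CAR-like cells. Of the listed partners of collagens VI, XII and XIV, 7 passed the minimum in CAR-like cells, 1 higher and 1 lower. Dcn, which encodes decorin, was at 1217 CPM in old and 321 CPM in adult CAR-like cells (1.92). Fn1 was at 2.79 CPM in old and 26.6 CPM in adult ones (-3.25), under blood-cell background in both libraries. In osteolineage-like cells 11 partners passed, 2 higher and 6 lower, with a median log2 ratio of -1.37. All ratios of these list genes are for whole classes, whose clusters differ between the libraries. Among osteolineage-like cells, cluster 14 had 681 old and 180 adult cells, cluster 10 had 77 old and 1120 adult, and cluster 6 had 0 old and 1925 adult. Ratios of the list genes within shared clusters are not given here, so differences within a cluster cannot be read from them.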

How the data were processed

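The authors deposited raw UMI counts per gene and barcode for each of 2 libraries. Cell Ranger 7.0.1 produced the deposited counts, per the file headers, and per the submitters' processing notes on GRCm39; the annotation release is not given in the sources used here. Barcodes with under 500 genes or over 10% mitochondrial UMIs were left out. Counts were scaled to 10000, 2000 variable genes (no collagen) gave 50 components and 15 neighbours, and Leiden clustering at resolution 1 was run (scanpy 1.11.5, leidenalg 0.10.2, numpy 2.4.6, Python 3.11.15). Clusters were named from marker lists when the score was at least 0.45 and at least 3 markers were found in over 10% of cells; these thresholds were set after the data were seen. Scrublet called 0 old and 1 adult cell, so it did not work and no doublets were removed. Levels are CPM of UMIs summed over a class, with exact Poisson, binomial and ratio intervals. A gene was compared when its higher library held at least 10 CPM and 50 UMIs of it, and called at 2-fold. Background is the mean UMIs per cell in blood-cell classes of at least 50 cells. Shares were also taken after thinning each cell to 2000 UMIs. Ratios were checked on simulated data. Named genes are all 9 members, the 3 genes most alike to each, and the list genes farthest apart; up to 3 list genes a class, of which the text gives part. The members, lists and motifs were chosen with earlier results of these data known, and 0 columns were left unmapped. Depth limits precision through the UMIs given. Promoters are from RefSeq on GRCm38.p6, another build than the files'. Alternatives are in the closing section.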

Additional observations from a re-analysis of the deposited data

Results flagged for a closer look

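Col24a1 went opposite ways in 2 cell classes: its log2 ratio of old over adult CPM was 2.30 in CAR-like cells and -2.09 in osteolineage-like cells. The difference between the classes was not tested, since there is 1 library per age. The CAR-like ratio rests on 17.8 CPM in old and 3.61 CPM in adult cells, of which the adult level is below the blood-cell background. In the osteolineage-like class the ratio was -0.09 within cluster 10, which held most osteolineage-like UMIs of the gene in both libraries.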

How the results depend on the processing

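No paired analysis was possible because each age has 1 library. The 5 calls in CAR-like cells became 2 at Leiden resolution 0.5, and 3 when the libraries were clustered separately, with a minimum of 50 CPM, or with the 2 large unnamed clusters counted as CAR-like, an alternative added after seeing the data. The count of 4 osteolineage-like calls stayed within 1.5 times when the whole class was used, but the sizes of the ratios varied. Over 13 alternatives Col6a3 lay between 1.09 and 2.75 and Col8a1 between 1.75 and 2.62. Col25a1 lay between 1.63 and 3.02, and Col24a1 between -2.33 and -1.86. Within single shared clusters, also chosen after seeing the data, Col8a1 passed 2-fold in cluster 14, and Col6a1 and Col12a1, both lower, in cluster 10. Shares over all genes are not given here for single clusters or other settings, so these calls are not read as a result about the genes. The 1 pericyte or smooth muscle-like call became 2 when the libraries were clustered separately or each cell weighted alike, and 3 with background taken off or a minimum of 1 CPM and 20 UMIs. The 2 fibroblast-like calls became 4 with collagen genes allowed among the variable genes, and 1 with each cell weighted alike or ratios centred on the median. Of the ratios past 2-fold, Col25a1 in CAR-like cells reversed (-1.70 with separate clustering, -0.62 with the unnamed clusters counted). In osteolineage-like cells 2 others changed sign within a single cluster, with intervals that include 0. They were Col6a3 in cluster 10 (-0.09, -0.36 to 0.18) and Col24a1 in cluster 14 (0.79, -0.07 to 1.76). The Col24a1 value was below the minimum, from 74 old and 13 adult UMIs, so neither shows a reversed direction. Of the ratios within 2-fold, Col12a1, Col6a1 and Col6a2 in osteolineage-like cells turned at resolution 0.5 (-0.99, -0.01 and -0.01). Col6a3 in CAR-like cells kept its sign in 12 of 14 alternatives, and its highest value was 0.02, with background taken off. Col8a1 in the pericyte or smooth muscle-like class turned when each cell was weighted alike (-0.01). Col8a1 in fibroblast-like cells turned in 3 settings (-0.43, -0.34 and -0.13), beside the values within clusters given above. The cause was not tested. Col6a1 in CAR-like cells was past 2-fold in 8 of 14 alternatives, between -1.18 and -0.76. With background taken off, Col24a1 and Col25a1 gave no ratio in CAR-like cells. Fibroblast-like cells gave no value with 4000 variable genes, separate clustering or a minimum of 1000 genes. Depth limits the low genes: where no cell had a UMI, up to 3 could have one by counting error, which limits cells with a UMI and not cells that express the gene, and low counts in few cells, as of Col14a1 and Col22a1, may come from single cells.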
